A study of Mus musculus with 4 samples.

Results

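The hypoxia-inducible factors (HIFs) and the enzymes that destabilize them were examined as a family of 9 genes, out of 47729 gene rows counted. The genes were taken by name: the α-subunit genes Hif1a, Epas1 and Hif3a, the β-subunit gene Arnt, the prolyl hydroxylase genes Egln1, Egln2 and Egln3, Vhl, and Hif1an. Each matched a single row by its mouse Ensembl ID, and all 9 were among the 13732 genes that passed the filter on low counts. RNA came from CD4 T cells of C57BL/6 mice that were cultured towards induced regulatory T (iTreg) cells. Spleen is the labeled tissue, and the methods add lymph nodes and naïve cells as the starting material. Both groups received 5 ng/mL of TGF-β, 100 U/mL of IL-2 and blocking antibodies to IL-4 and IFN-γ (5 µg/mL of each), with anti-CD3 and anti-CD28 stimulation per the methods. For 4 days the FeSO4 group also received 50 μM ferrous sulfate, while the Mock group received PBS. Each group had 2 libraries, which the methods describe as pairs from independent experiments. No sort for Foxp3 is stated for these cultures, so a library holds all cells of its culture.

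A HIF is a dimer of an oxygen-regulated α-subunit and a constant β-subunit, and it activates genes for glycolysis, angiogenesis and adaptation to low oxygen. Under normal oxygen, the prolyl hydroxylases (PHD1, PHD2 and PHD3, encoded by Egln2, Egln1 and Egln3) modify prolines of the α-subunit, which the VHL protein then recognizes for ubiquitination and degradation. FIH, the product of Hif1an, hydroxylates an asparagine of the α-subunit and so blocks its binding of the p300 and CBP coactivators. These hydroxylases need ferrous iron, oxygen and 2-oxoglutarate. In T cells, HIF-1α is known to be induced after receptor stimulation and to drive glycolytic genes, and the mRNA of HIF-2α (Epas1) carries an iron-responsive element through which iron regulatory proteins control its translation.

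The stretches on which the prolyl hydroxylases act are shown for the α-subunit genes, which encode their substrates in this family. The GENCODE M1 coding sequences of Hif1a, Epas1 and Hif3a were translated. Each stretch was found by searching for a leucine, any pair of residues, and then leucine, alanine and proline. The other members were not searched. The capitals mark the codon of the proline, and codons are counted from the start codon.
Hif1a, proline codon 402: gctctcactctgctggctCCAgct
Hif1a, proline codon 577: gatttggagatgctggctCCCtat
Epas1, proline codon 405: gaactggcccagttggccCCCacc
Epas1, proline codon 530: gatttggagaccttggcaCCCtac
Hif3a, proline codon 487: gacttggagatgctggccCCCtac
Hif1a and Epas1 each held 2 such stretches and Hif3a held 1. Codon numbers are those of the transcript models Hif1a-001 and Hif3a-001. The same stretches lie at codons 390 and 551 of Hif1a-003 and at codon 489 of Hif3a-002, and Epas1 has them in a single model.

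Iron changed this family in a few members and by unequal amounts. Egln3 was 2.94-fold higher in FeSO4 (95% interval 2.58 to 3.34), Hif1a was 1.41-fold higher (1.26 to 1.57), and Hif1an fell to 0.765-fold of Mock (0.68 to 0.86). The other 6 members, Epas1, Hif3a, Arnt, Egln1, Egln2 and Vhl, did not pass an adjusted p of 0.05. The study's own threshold was an unadjusted p under 0.05 from DESeq2 with a log2 fold change of at least 0.5 in either direction. With that threshold applied to the edgeR values, Egln3 alone was called, since Hif1a (0.49) and Hif1an (-0.39) fell short of that size. At the adjusted p, 3 of 9 were called, 2 higher and 1 lower, where 19.5% of the 13732 genes tested were called (10.6% higher and 8.89% lower). The FeSO4 libraries lay outside the range of the Mock libraries in 7 of the 9 members, a share to be read against 59.5% of all genes tested. The median log2 fold change was -0.16 over the members and -0.000455 over all genes. With 2 libraries per group, an exact permutation test cannot give a two-sided p below 0.333, so the p-values are those of edgeR's quasi-likelihood test, which shares its estimate of spread across genes.

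**Figure D1:**
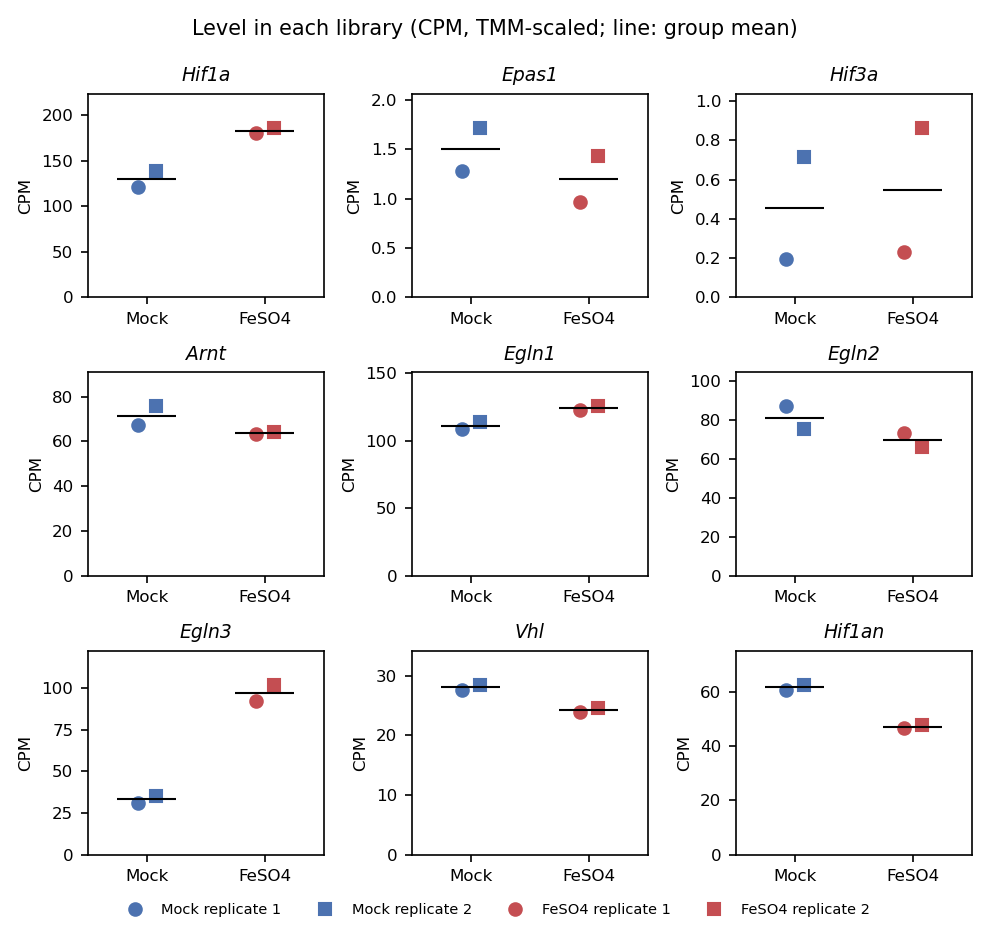
CPM of each of the 9 genes in the 4 libraries, with circles for replicate 1, squares for replicate 2 and a line at the mean of each group; every y axis starts at 0. Both FeSO4 libraries lie above both Mock libraries for Hif1a, Egln1 and Egln3, and below them for Arnt, Egln2, Vhl and Hif1an. For Epas1 and Hif3a, 1 FeSO4 library lies between the Mock libraries.

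Gene rows held 35183187 to 40859178 reads per library, and levels are given as CPM, read counts brought to a common library size, with library sizes scaled by the trimmed mean of M-values (TMM). A count of 0 allows up to 3 reads, or 0.0717 to 0.0876 CPM depending on the library. All 5 markers of T and regulatory T cells were present, with Cd4 at 605 to 683 CPM in the 4 libraries. Foxp3 was at 586 and 693 CPM in Mock and at 375.5 and 471.5 CPM in FeSO4, while Cd3e (303 to 346 CPM), Il2ra (1394 to 1585) and Ctla4 (135 to 179) had FeSO4 means above those of Mock or group ranges that overlapped. The 3 B cell markers summed to 1.84 and 2.81 CPM in Mock and to 1.86 and 2.22 in FeSO4, and the 4 myeloid markers to 1.82 and 6.03 against 1.49 and 1.57, most of the latter group's excess in Mock replicate 1 being Lyz2 (164 counts). Of the endothelial and stromal markers, Tek was at 0, Cdh5 and Kdr had at most 6 counts, Col1a1 had 8 to 54, and Pecam1, which T cells also express, was at 52.4 and 59 CPM in Mock and at 40.7 and 47.4 CPM in FeSO4. The NK markers Ncr1 and Klrb1c were at 0, the CD8 markers summed to 9.03 and 9.8 CPM in Mock against 9.95 and 11 in FeSO4, and the hemoglobin gene Hba-a1 was at 19.6 and 24.5 CPM in Mock and at 32.5 and 37.5 CPM in FeSO4. The part of Foxp3 level, Pecam1 or Hba-a1 in the values of the HIF family was not tested, and in bulk RNA fewer cells of a type and less RNA per cell cannot be told apart.

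Hif1a, which encodes HIF-1α, was nearly the whole α-subunit mRNA of these cells. The Mock libraries had 121 and 139 CPM of it, and the FeSO4 libraries 180 and 186 CPM. Both FeSO4 libraries were thus above both Mock libraries, which differed from each other by more than the FeSO4 libraries did. The rise in log2 units was 0.49 ± 0.07 (SE, adjusted p = 0.000276, edgeR), with 0.57 between the libraries numbered 1 and 0.42 between those numbered 2. Hif1a (ENSMUSG00000021109) lies on chromosome 12 at 73901324 to 73947554 (GRCm38.p6). Of its exon bases, 5.6% overlap those of the antisense model Gm15283 in GENCODE M1, and the strand setting of the counting is not given in the sources used here.

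Epas1, which encodes HIF-2α, was scarce. It had 52 and 72 counts in the Mock libraries and 33 and 53 in the FeSO4 libraries, equal to 1.28 and 1.72 CPM against 0.963 and 1.43 CPM. FeSO4 replicate 2 lay between the Mock libraries, so the groups overlapped. Its log2 fold change, -0.32 ± 0.40 (SE, adjusted p = 0.63, edgeR), had a 95% interval of -1.18 to 0.53, and at this depth neither a fall to 0.442-fold nor a rise to 1.45-fold lay outside the interval. Epas1 (ENSMUSG00000024140) lies on chromosome 17 at 86753864 to 86833410 (GRCm38.p6).

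Hif3a, whose product can act as a negative regulator of the other α-subunits, was rarer still. It had 8 counts in each library numbered 1, Mock and FeSO4 alike, against 30 and 32 counts in the libraries numbered 2. The libraries thus differed by their number in both groups, and the groups overlapped. The fitted change in log2 of 0.27 ± 0.73 (SE, adjusted p = 0.845, edgeR) had an interval of -1.29 to 1.82. A lower value in replicate 1 than in replicate 2 in both groups was found for 8 of the 9 members, all but Egln2. Hif3a (ENSMUSG00000004328) lies on chromosome 7 at 17030993 to 17062427 (GRCm38.p6).

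Levels of different genes were compared as CPM per kilobase of exon, since longer transcripts yield more reads. On that scale Hif1a made up 98.7 and 98.2% of the sum of the 3 α-subunit mRNAs in Mock and 99.3 and 98.8% in FeSO4. The share of Epas1 was 1.16 and 1.35% in Mock and 0.59 and 0.844% in FeSO4, with both FeSO4 libraries below both Mock libraries. That share depends on the Hif1a level in its denominator. Hif3a never exceeded 0.446%.

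Arnt, which encodes HIF-1β, the dimer partner of each α-subunit, was at 67.2 and 75.7 CPM in Mock and at 63.4 and 64.1 CPM in FeSO4. The FeSO4 libraries were lower, but the gap to Mock replicate 1 was smaller than the difference between the Mock libraries. Its log2 fold change of -0.16 ± 0.08 (SE, adjusted p = 0.181, edgeR) had an interval of -0.34 to 0.01. Per kilobase, Hif1a exceeded Arnt 2.44- and 2.49-fold in the Mock libraries and 3.85- and 3.94-fold in the FeSO4 libraries. Arnt (ENSMUSG00000015522) lies on chromosome 3 at 95434367 to 95497240 (GRCm38.p6).

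**Figure D2:**
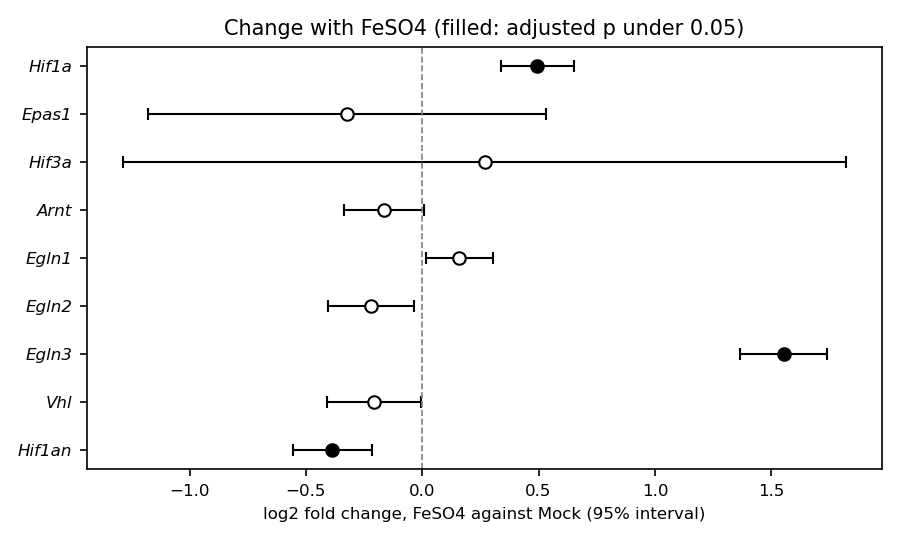
log2 fold change of FeSO4 against Mock for each gene with its 95% interval from edgeR's quasi-likelihood fit, filled where the adjusted p was under 0.05. Egln3 (1.55) and Hif1a (0.49) lie to the right and Hif1an (-0.39) to the left of 0, and the widest intervals are those of Epas1 and Hif3a.

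Among the prolyl hydroxylases, Egln3, which encodes PHD3 and is itself a well-known HIF target, changed most. The Mock libraries had 31.2 and 35 CPM of it, and the FeSO4 libraries 92.5 and 102 CPM. The groups were far apart relative to the spread within them. Its log2 fold change of 1.55 ± 0.09 (SE with adjusted p = 1.81e-08, edgeR) had the 10th smallest p of the 13732 genes tested, while 134 genes had a larger log2 fold change. It was 1.57 and 1.54 between the same-numbered libraries. Egln3 (ENSMUSG00000035105) lies on chromosome 12 at 54178981 to 54203874 (GRCm38.p6), and its exons overlap those of no other gene in GENCODE M1.

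Egln1, which encodes PHD2, the main regulator of HIF-1α under normal oxygen, was at 108 and 114 CPM in Mock and at 123 and 126 CPM in FeSO4. The FeSO4 libraries were higher by a small margin, 0.16 ± 0.07 on the log2 scale (SE, adjusted p = 0.12, edgeR; unadjusted p = 0.0336). The interval, 0.01 to 0.30, held no change larger than 1.23-fold. Egln1 (ENSMUSG00000031987) lies on chromosome 8 at 124908587 to 124949254 (GRCm38.p6).

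Egln2, which encodes PHD1, pointed the other way, at 87.1 and 75.5 CPM in Mock and at 73.6 and 66.1 CPM in FeSO4. FeSO4 against Mock gave a log2 fold change of -0.22 ± 0.09 (with SE, adjusted p = 0.0912, edgeR; unadjusted p = 0.0228). The lower Mock library and the higher FeSO4 library were close to each other, and in both groups replicate 1 was above replicate 2. Although not called here, Egln2 was called in a fit that took the replicate number as a block (log2 fold change -0.22, adjusted p = 0.0282), with scaling by library size alone (-0.29, adjusted p = 0.0296) and without Mock replicate 2 (-0.32, adjusted p = 0.0378). Its value was smaller without Mock replicate 1 (-0.12, adjusted p = 0.432) and without FeSO4 replicate 2 (-0.15, adjusted p = 0.396). Egln2 (ENSMUSG00000058709) lies on chromosome 7 at 27158658 to 27166802 (GRCm38.p6), and 0.4% of its exon bases overlap Cyp2t4 on the opposite strand.

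The makeup of the prolyl hydroxylase mRNA differed between the groups. Per kilobase, the 3 genes summed to 73.7 and 72.6 CPM in Mock and to 96 and 97.6 CPM in FeSO4. Egln3 held 17 ± 1.56% of this sum in Mock and 37.7 ± 2.12% in FeSO4 (SD, n = 2 each). The share of Egln2 was 39.7 ± 3.59% against 25.8 ± 2.25%, and that of Egln1 was 43.3 ± 2.03% against 36.5 ± 0.13%. For each of the 3 genes the shares in the FeSO4 libraries lay outside the range of those in Mock. Since shares add up to a whole, a share can fall without a fall in level. The level of Egln1 per kilobase was higher in FeSO4 (34.95 and 35.74 CPM) than in Mock (30.86 and 32.48). That of Egln2 was lower in FeSO4 (26.27 and 23.62 CPM) than in Mock (31.12 and 26.97). Neither gene passed the test. How much of the lower Egln2 share came with the rise of Egln3 was not tested. Egln3 went from 0.38 and 0.405 of the Egln1 level per kilobase in Mock to 0.994 and 1.07 in FeSO4.

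**Figure D3:**
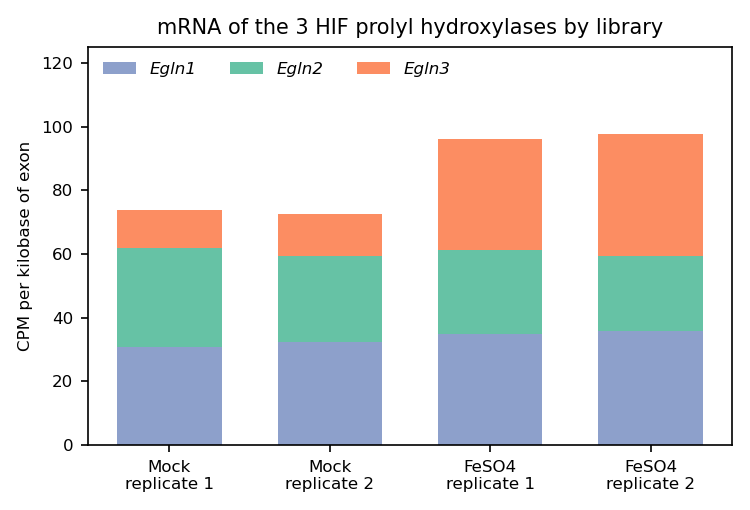
Stacked levels of Egln1, Egln2 and Egln3 in each library, in CPM per kilobase of exon. The orange Egln3 segment takes 15.9 and 18.1% of the bar in the Mock libraries and 36.2 and 39.2% in the FeSO4 libraries.

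Hif1an, which encodes the asparaginyl hydroxylase FIH, was at 60.8 and 62.6 CPM in Mock and at 46.7 and 47.7 CPM in FeSO4. The libraries of each group nearly coincided, and the groups were separate. On the log2 scale the change was -0.39 ± 0.08 (SE, adjusted p = 0.00346, edgeR), and it was -0.38 and -0.39 between the same-numbered libraries. Hif1an (ENSMUSG00000036450) lies on chromosome 19 at 44562854 to 44576274 (GRCm38.p6). Per kilobase, Hif1a was 2.23- and 2.48-fold above Hif1an in Mock and 4.31- and 4.37-fold above it in FeSO4.

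Vhl, the substrate-recognition subunit of the ubiquitin ligase for hydroxylated HIF-α, was at 27.6 and 28.5 CPM in Mock and at 24 and 24.6 CPM in FeSO4. Replicates were close, and the FeSO4 libraries were the lower ones. Its log2 fold change of -0.21 ± 0.10 (SE, adjusted p = 0.145, edgeR; unadjusted p = 0.0446) did not pass the threshold, and its interval, -0.41 to -0.01, held no fall below 0.753-fold. Vhl (ENSMUSG00000033933) lies on chromosome 6 at 113623994 to 113631634 (GRCm38.p6). A pseudogene, Vhl-ps1, is annotated, so reads that fit both may be missing from the Vhl count or shared with it.

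Ranked by level per kilobase, the Mock libraries placed Egln1 (31.7 ± 1.15 CPM per kilobase) and Egln2 (29.05 ± 2.93) first, and the libraries of this pair overlapped (SD, n = 2 each). Hif1a (22 ± 2.14) and Egln3 (12.4 ± 1.0) followed, each separated from its neighbors. Vhl (9.35 ± 0.20), Hif1an (9.34 ± 0.18) and Arnt (8.93 ± 0.75) did not differ beyond their spread. Epas1 (0.283 ± 0.06) and Hif3a (0.0681 ± 0.05) were last. In FeSO4, Egln3 (36.5 ± 2.50) overlapped with Egln1 (35.3 ± 0.56) at the top, Hif1a (31 ± 0.74) came before Egln2 (24.9 ± 1.87), and Vhl (8.1 ± 0.14) and Arnt (7.97 ± 0.06) overlapped above Hif1an (7.15 ± 0.10).

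HIF complexes bind DNA at a short core, ACGTG or GCGTG, and the promoters of this family were searched for it because Egln3 and Hif1a rose together. RefSeq promoters (GRCm38.p6, 250 bases before to 50 after the listed start) were given for 8 members. ACGTG on either strand was present for Hif1a, Egln1, Egln2 and Egln3, and it is present in 19.6% of all 32851 promoters of this length. Egln2 had another listed window, chr7:27165679-27165978, which held no ACGTG and 1 GCGTG. The share over all promoters counts each window apart, whereas a member is named if any of its windows matched. ACGTG or GCGTG is present in 43.8%. GCGTG was found for Arnt, Hif3a, Egln1 and Egln2, and it is present in 32.4% of all promoters. Neither core was found for Vhl and Hif1an. The stretches are shown because they hold the ACGTG matches, and they are written 5′ to 3′ along the gene with ACGTG in capitals. In the first Hif1a and the second Egln2 stretch the core is preceded by a C, and the resulting CACGTG is a palindrome that matches on both strands. The Hif1a window, 73907617 to 73907916 on chromosome 12, surrounds a start that RefSeq lists inside the gene and not at the first base of the gene interval given above, so both Hif1a stretches lie within that interval.
Hif1a, 134 bases before the start, chr12:73907721-73907749, plus strand: acacagacaagcACGTGagcggggcagct
Hif1a, 70 bases before the start, chr12:73907785-73907813, plus strand: tggctgagagcaACGTGggctggggtggg
Egln3, 229 bases before the start, chr12:54204087-54204115, minus strand: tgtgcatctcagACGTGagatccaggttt
Egln1, 68 bases before the start, chr8:124949306-124949334, minus strand: gggccgtggtgtACGTGcagcgcgcgcgg
Egln2, 48 bases before the start, chr7:27166834-27166862, minus strand: agcctcctgtcaACGTGcggttcgcgcac
Egln2, 3 bases before the start, chr7:27166789-27166817, minus strand: cgggccgctgtcACGTGcccagcgggcga
ACGTG was thus found beside genes that rose (Hif1a and Egln3) and beside genes that did not pass the test (Egln1 and Egln2). GCGTG was also found beside Arnt and Hif3a, which did not pass. Binding was not measured here.

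Other proteins act on HIF-α turnover, and 10 of their genes were listed. Past an adjusted p of 0.05, 7 were higher in FeSO4 and 0 were lower (edgeR; the lower count was also 0 at an unadjusted p under 0.05 and with DESeq2), beside 10.6% of all genes called higher. The list's median log2 fold change was 0.31. The elongin C gene Eloc rose from 68 ± 0.25 to 85.6 ± 3.87 CPM, and Rbx1, the RING subunit of the VHL ligase, from 74.9 ± 5.37 to 92.6 ± 0.59 CPM (SD, n = 2 each). The HSP90 genes Hsp90aa1 and Hsp90ab1, whose products stabilize HIF-α as chaperones, rose by 0.35 ± 0.06 and 0.31 ± 0.05 on the log2 scale (SE). The called genes thus include ligase subunits and stabilizing chaperones. Its count was 4 with scaling by library size alone, 3 without Mock replicate 2, where Rbx1 was not called (adjusted p = 0.086), and 3 without FeSO4 replicate 1, where Eloc was not called (adjusted p = 0.058).

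Of 7 dimer partners and coactivators, 3 were higher (Ahr, Cited2 and Arnt2) and 2 lower (Ep300 and Crebbp) at an adjusted p under 0.05. This stands beside 10.6 and 8.89% of all genes called, and the median log2 fold change was -0.27. Ep300, which encodes p300, fell from 130 ± 13.6 to 101 ± 1.81 CPM, and Crebbp, which encodes CBP and was named after its values were seen, fell from 88.8 ± 10.2 to 73.4 ± 3.70 CPM (SD, n = 2 each). Ahr, another partner of Arnt, rose by 0.51 ± 0.10 on the log2 scale (SE), a value that was 0.31 without FeSO4 replicate 1. Cited2, whose product competes with HIF-α for p300 and CBP, rose by 0.30 ± 0.09. Arnt2, a paralog of Arnt, had 0 and 1 counts in Mock and 11 and 10 in FeSO4. Arnt2 passed the filter on low counts only through the FeSO4 libraries. The count of 3 higher partners includes it and should be read without it, as Ahr and Cited2. A fitted fold change has little meaning for Arnt2. It was not called with DESeq2, with no filter on low counts, or without Mock replicate 1, Mock replicate 2 or FeSO4 replicate 1. Without Mock replicate 2, 1 of the 7 genes was called, and Ep300 (adjusted p = 0.0508) and Crebbp (adjusted p = 0.293) were not. Without FeSO4 replicate 1, 3 were called and Crebbp was not (adjusted p = 0.16). Cited2 lost its call with DESeq2, with library size only, without Mock replicate 1, without Mock replicate 2 and without FeSO4 replicate 2, and its adjusted p reached 0.166 over all alternatives.

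Of the iron regulatory protein genes, which act on Epas1 translation, Aco1 was at 54.7 ± 0.06 CPM in Mock and 58.8 ± 0.82 in FeSO4, and Ireb2 at 61.7 ± 4.93 and 62 ± 1.85 CPM (SD, n = 2 each). Neither passed the threshold (adjusted p = 0.388 and 0.969, edgeR). The sign for Ireb2 changed with the scaling.

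Of 25 well-known HIF targets, 11 passed an adjusted p of 0.05 with higher levels in FeSO4, 3 passed with lower levels and 11 did not pass, beside 10.6 and 8.89% of all genes. The median log2 fold change was 0.30. The 4 genes of smallest p were Pgk1 (0.66 ± 0.06), Slc2a1 (0.57 ± 0.07), Bnip3 (1.26 ± 0.17) and Slc16a3 (0.78 ± 0.11), given as log2 fold changes ± SE. They encode a glycolytic kinase, the glucose transporter GLUT1, a mitophagy receptor and a lactate exporter. The lower ones, named after their values were seen, were Ddit4, Bhlhe40 and Adm, the last at 15 and 13 counts in the Mock libraries and at 0 in those of FeSO4. Adm passed the filter on low counts only through the Mock libraries. The count of 3 lower targets includes it and should be read without it, as Ddit4 and Bhlhe40. Vegfa, chosen likewise after the fact, went from 35 and 65 counts to 102 and 378. Its log2 fold change was 2.45 in all libraries, 1.30 without FeSO4 replicate 2 and 3.07 without FeSO4 replicate 1. Without Mock replicate 2, Ddit4 and Bhlhe40 were not called, leaving Adm as the 1 lower target, and Ddit4 was not called without FeSO4 replicate 1 nor Bhlhe40 without FeSO4 replicate 2. Maf, which encodes the transcription factor c-Maf, rose from 68.9 ± 2.90 to 98.2 ± 0.01 CPM (SD, n = 2 each). On the log2 scale this was 0.51 ± 0.07 (SE) with an adjusted p of 0.000212 (edgeR).

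**Figure D4:**
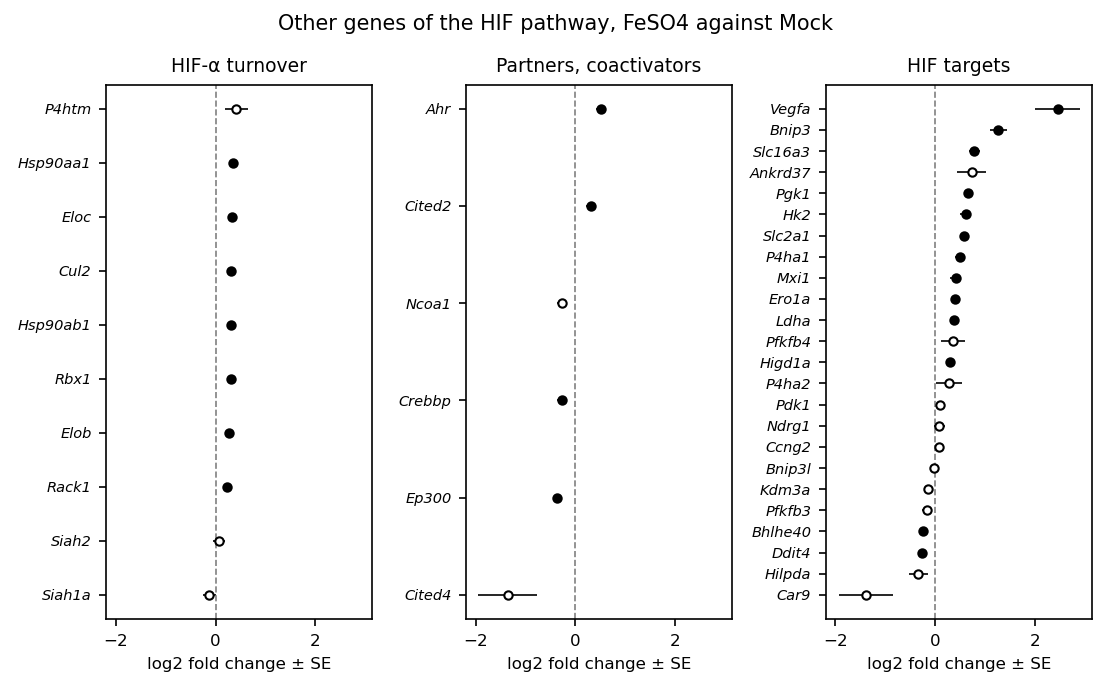
log2 fold change ± SE of FeSO4 against Mock for the other genes of HIF-α turnover, the dimer partners and coactivators, and the HIF targets, filled where the adjusted p was under 0.05. Arnt2 and Adm are not drawn because 1 group is at 0 or 1 counts; 7 of 10 turnover genes are filled to the right of 0, and the targets drawn range from Car9 (-1.38) to Vegfa (2.45).

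The genes whose profile over the 4 libraries was most like that of a called member were found by the Euclidean distance between log2 CPM values, each gene centered on its mean. Among 7963 named genes of at least 10 CPM, those nearest to Hif1a were Trbv26 (distance 0.0231), Acsl4 (0.0443) and Klf6 (0.0462). Those nearest to Egln3 were Scd2 (0.196), Ifitm1 (0.196) and the agouti gene a (0.221). Those nearest to Hif1an were Mlst8 (0.0212), Gramd4 (0.0267) and Irgq (0.0276). With 4 libraries, such a profile is in the main the size of the change, and the distances are given as a description.

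**Figure D5:**
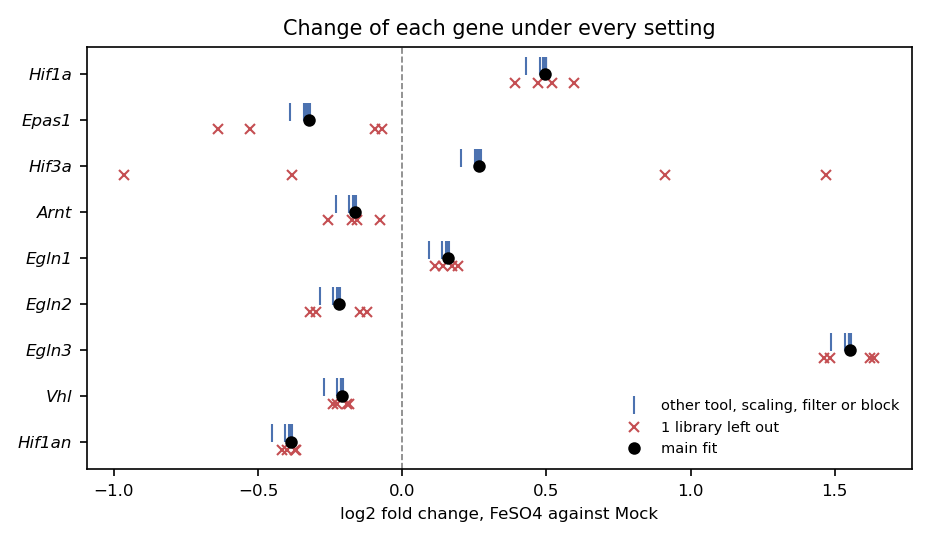
log2 fold change of each gene as reported (black), under another tool, scaling, filter or the replicate block (blue) and with 1 library left out (red crosses). The values of Egln3 stay between 1.46 and 1.64, while those of Hif3a run from -0.96 to 1.47.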

How the data were processed

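The authors deposited unnormalized read counts for each Ensembl gene. The submitters' processing notes name Trim Galore 0.6.7, STAR 2.7.9a, featureCounts and the build mm10, whereas the methods name mm9 and DESeq. The table holds no coordinates, and positions are RefSeq's for GRCm38.p6. Its 5 closing rows of unassigned reads (ambiguous reads were 3.78 to 3.91% of a library and reads with more than 1 alignment 4.27 to 4.62%) were left out. Columns of other samples numbered 0. Symbols were matched by Ensembl ID (32799 of 47729).

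With edgeR 4.0.16 in R 4.3.3, filterByExpr kept 13732 genes, TMM set the library sizes, and the quasi-likelihood F test compared FeSO4 with Mock. P-values were adjusted over these genes by Benjamini and Hochberg's method, and calls are adjusted p under 0.05. The SE is the size of the log2 fold change over the square root of F. Exon lengths for CPM per kilobase are unions of all GENCODE M1 exons (NCBIM37). Counts per library give the depth, and limits from counts cover counting error only. The fit was tested on simulated data. Alternatives used DESeq2 1.42.0 and limma-voom (limma 3.58.1), other filters and scalings, a block for the replicate number, and each library left out. The members, lists and markers were chosen with earlier results of these data known. Named are all members, up to 4 called genes of smallest p per list, Maf, Aco1 and Ireb2, and, by distance, 3 genes per called member. Crebbp, Ncoa1, Cited4, Ddit4, Bhlhe40, Adm, Vegfa and Car9 fall outside this rule and were named after their values were seen. A listed marker is not reported here.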

Additional observations from a re-analysis of the deposited data

How the results depend on the processing

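The 3 called members, Egln3, Hif1a and Hif1an, kept their direction and their call under the 12 alternatives that changed the tool, scaling, filter, block or libraries, with log2 fold changes of 1.46 to 1.64, 0.39 to 0.60 and -0.45 to -0.37. Egln1, Vhl, Arnt and Epas1 kept their sign and stayed uncalled in each, but with 1 library left out Epas1 ran from -0.64 to -0.07 and Arnt from -0.26 to -0.08. The sign for Hif3a reversed without Mock replicate 1 (-0.38) and without FeSO4 replicate 2 (-0.96), and with 1 library left out it ran from -0.96 to 1.47. Lower members numbered 2 in place of 1 with library size only and with the replicate block, Egln2 being added in both, and 1 to 2 with 1 library left out. At an unadjusted p under 0.05 and a log2 fold change beyond 0.5 in either direction, 1 member was higher (Egln3) and 0 were lower. Hif1a and Hif1an lost their calls through the size required. At this threshold 0 turnover genes and 3 partner genes (Ahr, Arnt2 and Cited4) were called. Of the targets, 7 were higher and 2 were lower (Car9 and Adm, with Ddit4 and Bhlhe40 not called). Arnt2 and Adm passed the filter on low counts through 1 group only, so these counts should be read without them. Turnover genes called numbered 4 with library size only, and 3 to 7 with 1 library left out. Partner genes called numbered 3 with DESeq2, 4 with no filter and with the filter of 10 counts (Arnt2 lost in each), and 1 to 5 with 1 library left out. Higher targets numbered 8 to 11 and lower targets 1 to 3 with 1 library left out. The sign for Ireb2 reversed with the upper quartile (-0.0115), with library size only (-0.0579), without Mock replicate 1 (-0.0816) and without FeSO4 replicate 2 (-0.0237), with a range of -0.0816 to 0.0901 when 1 library was left out. In plain CPM, which favors long transcripts, the share of Egln1 was 49.3% in Mock and 42.6% in FeSO4, that of Egln2 36% and 24%, and that of Egln3 14.7% and 33.4%. Beyond these, the cause was not tested.

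The methods speak of pairs from independent experiments, but the labels do not say that a number marks an experiment. Deviations of same-numbered libraries from their group means correlated at 0.0293 over all genes and at 0.22 over 8522 genes of at least 10 CPM. The replicate block changed the call of no member other than Egln2. Among the partners it added Ncoa1, so that 6 were called. With library size only, Ncoa1 was called in place of Cited2. Depth limits Epas1 and Hif3a, at most 72 and 32 counts in a library, and Hif3a, Arnt2 and Adm gave no value with a filter of at least 10 counts in every library. Under that filter the lower targets still numbered 3, with Car9 called in place of Adm.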
